A study of Danio rerio with 93 samples.

Results

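The nuclear genes of respiratory complex I were followed in 93 single whole zebrafish embryos of the SPF 5-D strain at 48 h post fertilization (hpf). Members were the genes whose zebrafish symbol begins with ndufa, ndufb, ndufc, ndufs, ndufv or ndufaf, and 46 of the 19913 genes in the count table met this rule. They comprised 35 subunits, 7 assembly factors of the NDUFAF series and 4 genes of the ndufa4 family, which share the prefix but are counted with complex IV in mammals. By position in the mammalian enzyme, the subunits were 6 core subunits, 9 accessory subunits of the matrix arm, 8 of the proximal membrane arm and 10 of the distal membrane arm, and 2 genes for the acyl carrier protein.

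RNA was taken from dechorionated embryos that had been kept from 6 hpf in wells with a smoke dye, the DMSO content of the wells being brought to 0.64%. Disperse Blue 14 was given at 133, 171, 209, 261.5 and 314 µM, Disperse Red 9 at 10, 25, 35, 45 and 55 µM, and Solvent Violet 47 at 12, 17.5, 23, 31.5 and 40 µM. For Solvent Red 169 the highest concentration was 50 µM and the others 35.6, 11.2, 5 and 1 µM, and for Solvent Yellow 33 the highest was 13.5 µM and the others 12, 10.5, 9 and 7.5 µM. Each of these 25 treatment groups held 3 embryos. Each dye had a control of its own with DMSO and no dye, of 4 embryos, except that the control of Solvent Violet 47 held 2. A whole embryo is a mixture of tissues, so fewer cells of a type and less RNA per cell cannot be told apart in any result below.

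Complex I, or NADH:ubiquinone oxidoreductase, is the entry point of electrons from NADH into the respiratory chain, and it pumps protons across the inner mitochondrial membrane while it passes the electrons to ubiquinone. Its matrix arm binds NADH and carries flavin and iron-sulfur clusters, and its membrane arm holds the pumping subunits, which mitochondrial DNA encodes. The core subunits do the chemistry, the accessory subunits surround and stabilise them, and the assembly factors help to build the enzyme without remaining in it. Tissues with a high energy demand, such as muscle, heart and nervous system, depend on it most.

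Depth and library state differed between embryos. The total count was 9171259 in replicate 3 at 12 µM Solvent Yellow 33 and between 22423324 and 48187940 in the others, with a median of 32290100. Markers of skeletal muscle, lens and red blood cells were present in every embryo, with a mean log2 CPM of at least 10.4, 3.73 and 5.47. Levels are given as CPM, estimated counts scaled to library size, which are not corrected for gene length and are compared only between embryos for a gene. Errors of fold changes are approximate standard errors (SE), the size of the log2 fold change divided by the square root of its F statistic. A gene was called a differentially expressed gene (DEG) at a fold change over 1.5 and an adjusted p under 0.05 in edgeR's quasi-likelihood test against the control of the dye. NDUFB4, a distal membrane arm subunit, had 0 counts in 91 of the 93 embryos, with 25.7 CPM in replicate 2 of the Disperse Blue 14 control and 8.29 CPM in replicate 3 at 12 µM Solvent Yellow 33, and it was too low to be tested against control, which left 34 subunits. Nor was ndufa4l2b tested, which had 0 counts in 66 embryos and at most 0.117 CPM.

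The mean level of the subunits varied from embryo to embryo, among the controls as well as among the exposed embryos. The mean log2 CPM of the 35 subunits, used here as a score, ran from 4.40 to 6.28 in the 18 control embryos, with a median of 5.01 and an SD of 0.47. In the 75 exposed embryos it ran from 4.09 to 6.87, with a median of 4.85 and an SD of 0.43. The 2 ranges overlapped almost wholly.

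**Figure D1:**
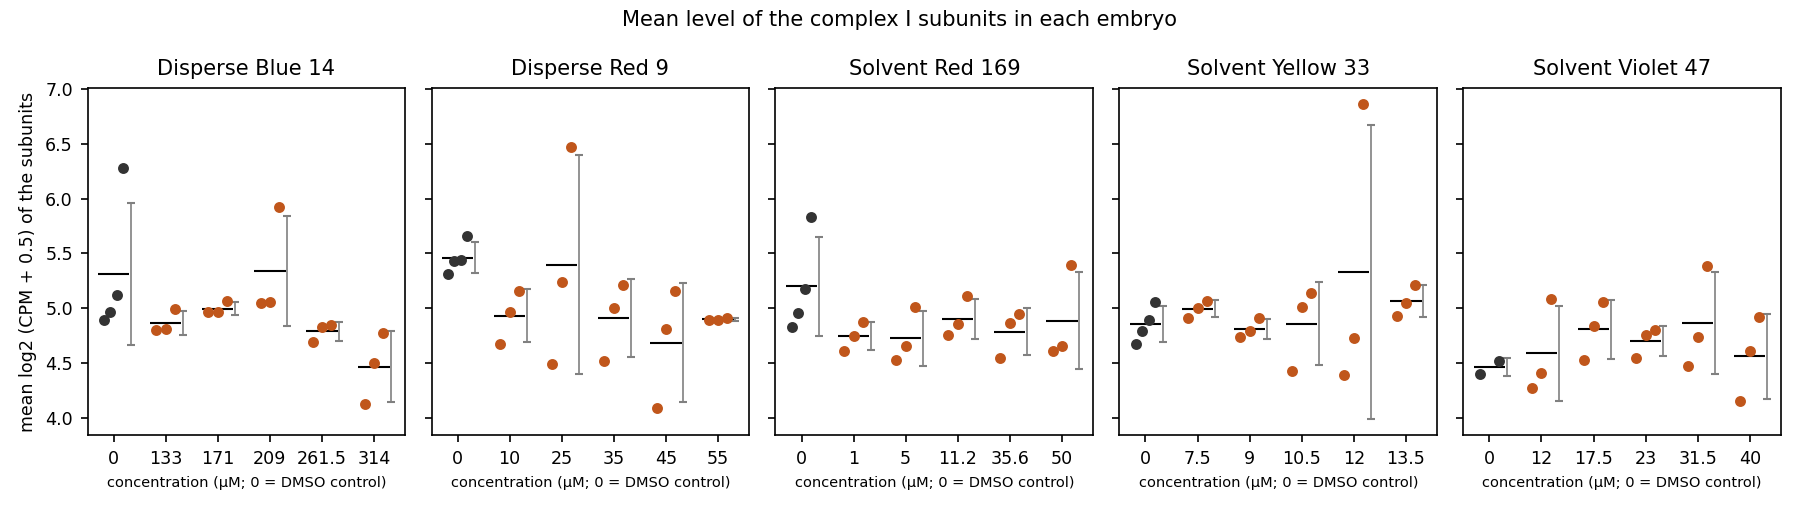
Mean log2 (CPM + 0.5) of the 35 complex I subunits in each embryo, by dye and concentration (0 is the DMSO control of the dye). Points are embryos, dark for controls, horizontal lines are group means and grey bars are 1 SD. 5 embryos, 2 of them controls, stand above 5.7, and the lowest point is an embryo at 45 µM Disperse Red 9 with 4.09.

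5 embryos had scores above 5.7, and they belonged to 5 different groups. These were replicate 3 at 12 µM Solvent Yellow 33 with a score of 6.87, replicate 3 at 25 µM Disperse Red 9 with 6.47, replicate 2 of the Disperse Blue 14 control with 6.28, replicate 1 at 209 µM Disperse Blue 14 with 5.92 and replicate 2 of the Solvent Red 169 control with 5.84. The next embryo had 5.66. Because a group held 2 to 4 embryos, each of these 5 embryos weighed on its group's mean, and the correlations and median fold changes below are also given without them.

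28 subunits followed the others closely across the 93 embryos, with a Pearson r of 0.65 to 0.98 between the log2 CPM of the subunit and the mean of the other subunits. The median r between 2 of these 28 was 0.87. They were taken as the subunits with r above 0.6 in these same embryos, which by itself favours a high r between them. Over the 88 embryos without the 5 named above, these subunits had an r of 0.28 to 0.97 and a median r between 2 of them of 0.83, and the lowest was NDUFV1, which had 0.65 over all embryos. These points share library preparation and scaling, and the values describe these embryos only. All 28 had their highest level in 1 of the 5 embryos named above, which were picked by a mean that includes these subunits. That choice, and the choice of the 28 by r, favour this outcome. Of the 28, 18 peaked in replicate 3 at 12 µM Solvent Yellow 33. Another 7 peaked in replicate 3 at 25 µM Disperse Red 9 and 3 in replicate 2 of the Disperse Blue 14 control. The closest to the mean was ndufa11, an accessory subunit of the proximal membrane arm, with r = 0.98, followed by NDUFB8 of the distal membrane arm with r = 0.97.

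The subunits differed in how far they moved on this common course. The SD of log2 CPM over the embryos was between 0.27 and 1.19. The widest was NDUFA6, a small matrix arm protein that docks an acyl carrier protein on the enzyme, whose level was 0.327 CPM in the lowest embryo, 1.99 CPM in the median and 465 CPM in the highest. NDUFA2, a matrix arm protein with a thioredoxin-like fold, ran from 1.77 to 179 CPM with a median of 8.46 CPM, and ndufa5 of the same arm from 4.49 to 321 CPM with a median of 20.9 CPM. NDUFA1, a short protein at the root of the membrane arm that is needed for assembly, ran from 57.5 to 304 CPM with a median of 100 CPM. NDUFS4, which stabilises the NADH-binding end of the matrix arm, ran from 11.9 to 154 CPM with a median of 27.7 CPM.

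6 tested subunits left this course over all embryos. NDUFS8, a core subunit that carries iron-sulfur clusters on the way to ubiquinone, ran against the others with r = -0.67, and with r = -0.45 over the 88. Its level was between 48.7 and 145 CPM in the 5 embryos with the highest scores, against a median of 171 CPM in the other 88. NDUFS6, a zinc-binding matrix arm protein, had r = 0.00 and NDUFA9, a dehydrogenase-like matrix arm protein, r = -0.18. The 2 acyl carrier protein genes NDUFAB1 and ndufab1b, whose product also serves mitochondrial fatty acid synthesis, had r = 0.33 and r = 0.24, and NDUFB6 of the distal membrane arm had r = 0.39. Over the 88 embryos NDUFB6 followed the others with r = 0.71, NDUFAB1 had 0.39 and ndufab1b -0.13, and NDUFS6 and NDUFA9 stayed at -0.01 and -0.18. Values of these 2 close copies, and of NDUFA4 and ndufa4b, are less certain than the rest, since reads that fit both copies are divided by a model.

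**Figure D2:**
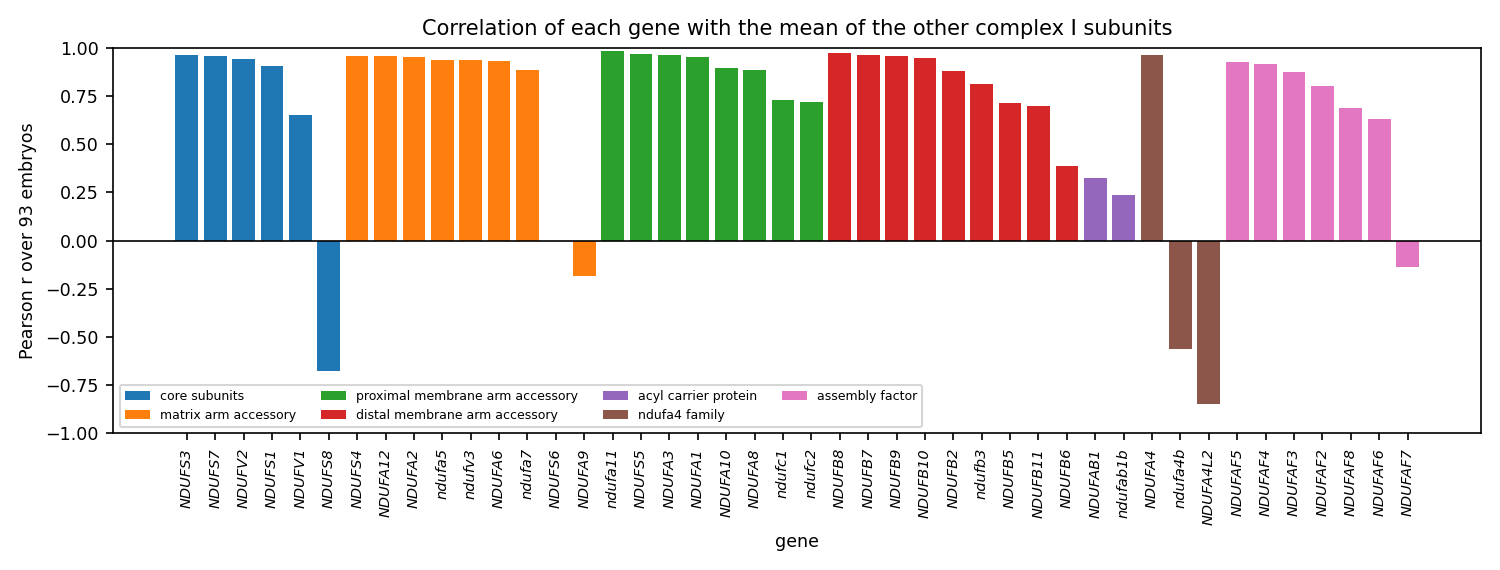
Pearson correlation over 93 embryos between the log2 (CPM + 0.5) of each gene and the mean of the other subunits, for the genes kept in the scaling of all embryos, grouped by role and without NDUFB4. 28 subunits lie between 0.65 and 0.98, while NDUFS8 lies at -0.67 and NDUFA4L2 at -0.85.

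The ndufa4 family was divided. NDUFA4, in mammals a subunit of complex IV, moved with the complex I subunits with r = 0.96. Its copy ndufa4b had r = -0.56, but r = -0.21 over the 88 embryos. NDUFA4L2, which in human cells is induced by low oxygen and lowers complex I activity, had r = -0.85, the lowest of all members, and r = -0.74 over the 88. Its level was 2.07 to 7.17 CPM in the 5 embryos with the highest scores against a median of 12.6 CPM in the other 88. Among the assembly factors, 6 followed the subunits with r from 0.63 to 0.93, while NDUFAF7, which in human cells methylates a core subunit during assembly, had r = -0.14. Over the 88 embryos the 6 had r from 0.47 to 0.91 and NDUFAF7 had 0.22.

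**Figure D3:**
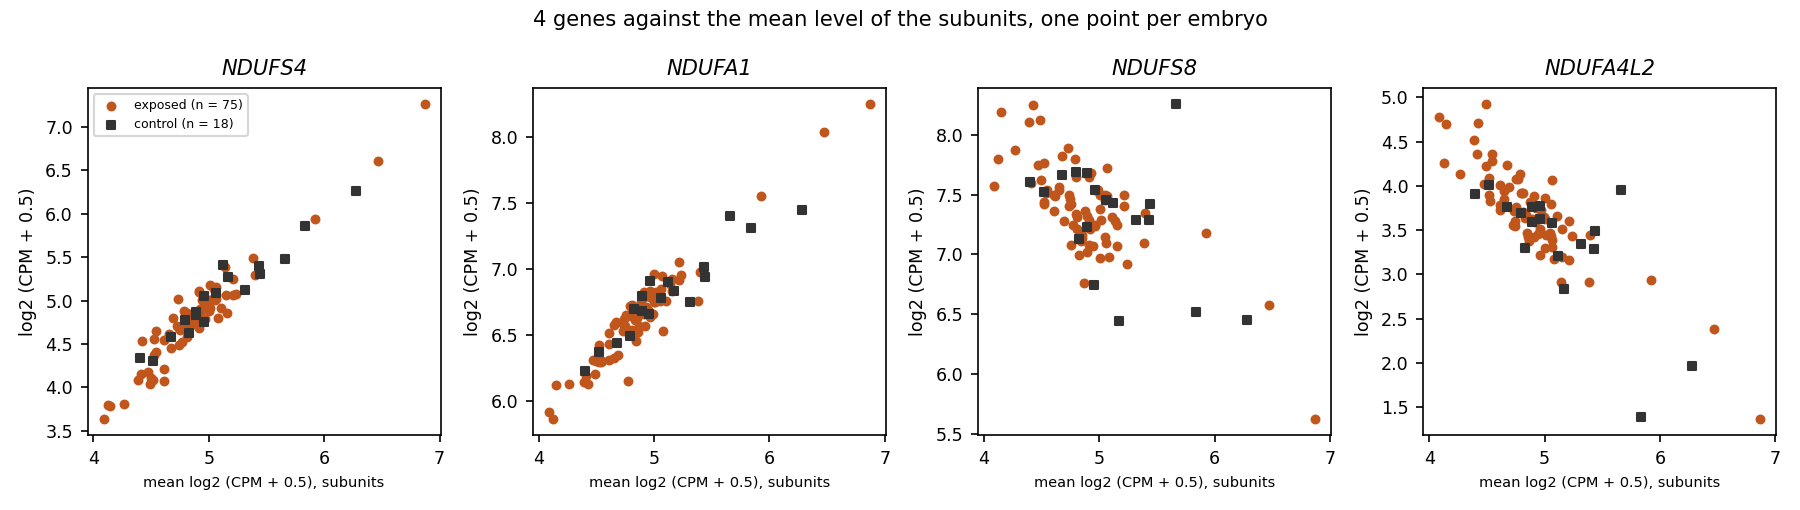
Log2 (CPM + 0.5) of NDUFS4, NDUFA1, NDUFS8 and NDUFA4L2 in each of 93 embryos against the mean log2 (CPM + 0.5) of the complex I subunits. Controls (squares) and exposed embryos (circles) lie on the same course, which climbs for NDUFS4 and NDUFA1 (r = 0.96 and r = 0.95) and descends for NDUFS8 and NDUFA4L2 (r = -0.67 and r = -0.85).

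The common course extended well beyond complex I. Over the same 93 embryos, the subunit score was set against the mean log2 CPM of the nuclear genes of the other complexes. It had r = 0.97 with complex III, 0.98 with complex IV, 0.99 with complex V and 0.77 with complex II. It had r = 0.96 with the cytosolic ribosomal proteins, 0.92 with the mitochondrial ribosomal proteins, 0.95 with skeletal muscle markers, 0.87 with lens markers and 0.78 with erythroid markers. The 7 subunits of complex I that mitochondrial DNA encodes ran the other way, with r = -0.84. The 6 subunits of complexes III, IV and V that it encodes did so too, with r = -0.79. Over the 88 embryos the values were 0.98, 0.96, 0.99 and 0.92 for complexes III, IV, V and II. They were 0.94 for the cytosolic ribosomal proteins, 0.90 for the mitochondrial ones, 0.91 for muscle, 0.75 for lens and 0.70 for erythroid markers. Of the subunits of mitochondrial DNA, those of complex I had -0.65 and the others -0.53. Other tissue markers followed the score less closely, with r = 0.66 for neuron and 0.52 for heart. Those of yolk and liver had 0.42 and those of hatching gland 0.01. Over the 88 embryos these lists had, in the same order, 0.46, 0.26, 0.44 and 0.37. Complex I assembly factors outside the NDUFAF series had r = 0.52, and 0.65 over the 88. The total count had r = 0.20, and r = 0.39 over the 88. Without replicate 3 at 12 µM Solvent Yellow 33 alone, the total count had r = 0.51 and complex II 0.95. The part of muscle, ribosomal protein and depth differences in the results below was not tested.

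The comparisons with control asked which concentrations of each dye went with a change of these genes. A subunit was a DEG in 5 of the 25 treatment groups, with 18 calls of a lower and 4 of a higher level, and 17 of the 18 lower calls came from 314 µM Disperse Blue 14. The median log2 fold change of the subunits was below 0 in 14 treatment groups and above 0 in 11, while that of all genes tested stayed between -0.07 and 0.05.

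**Figure D4:**
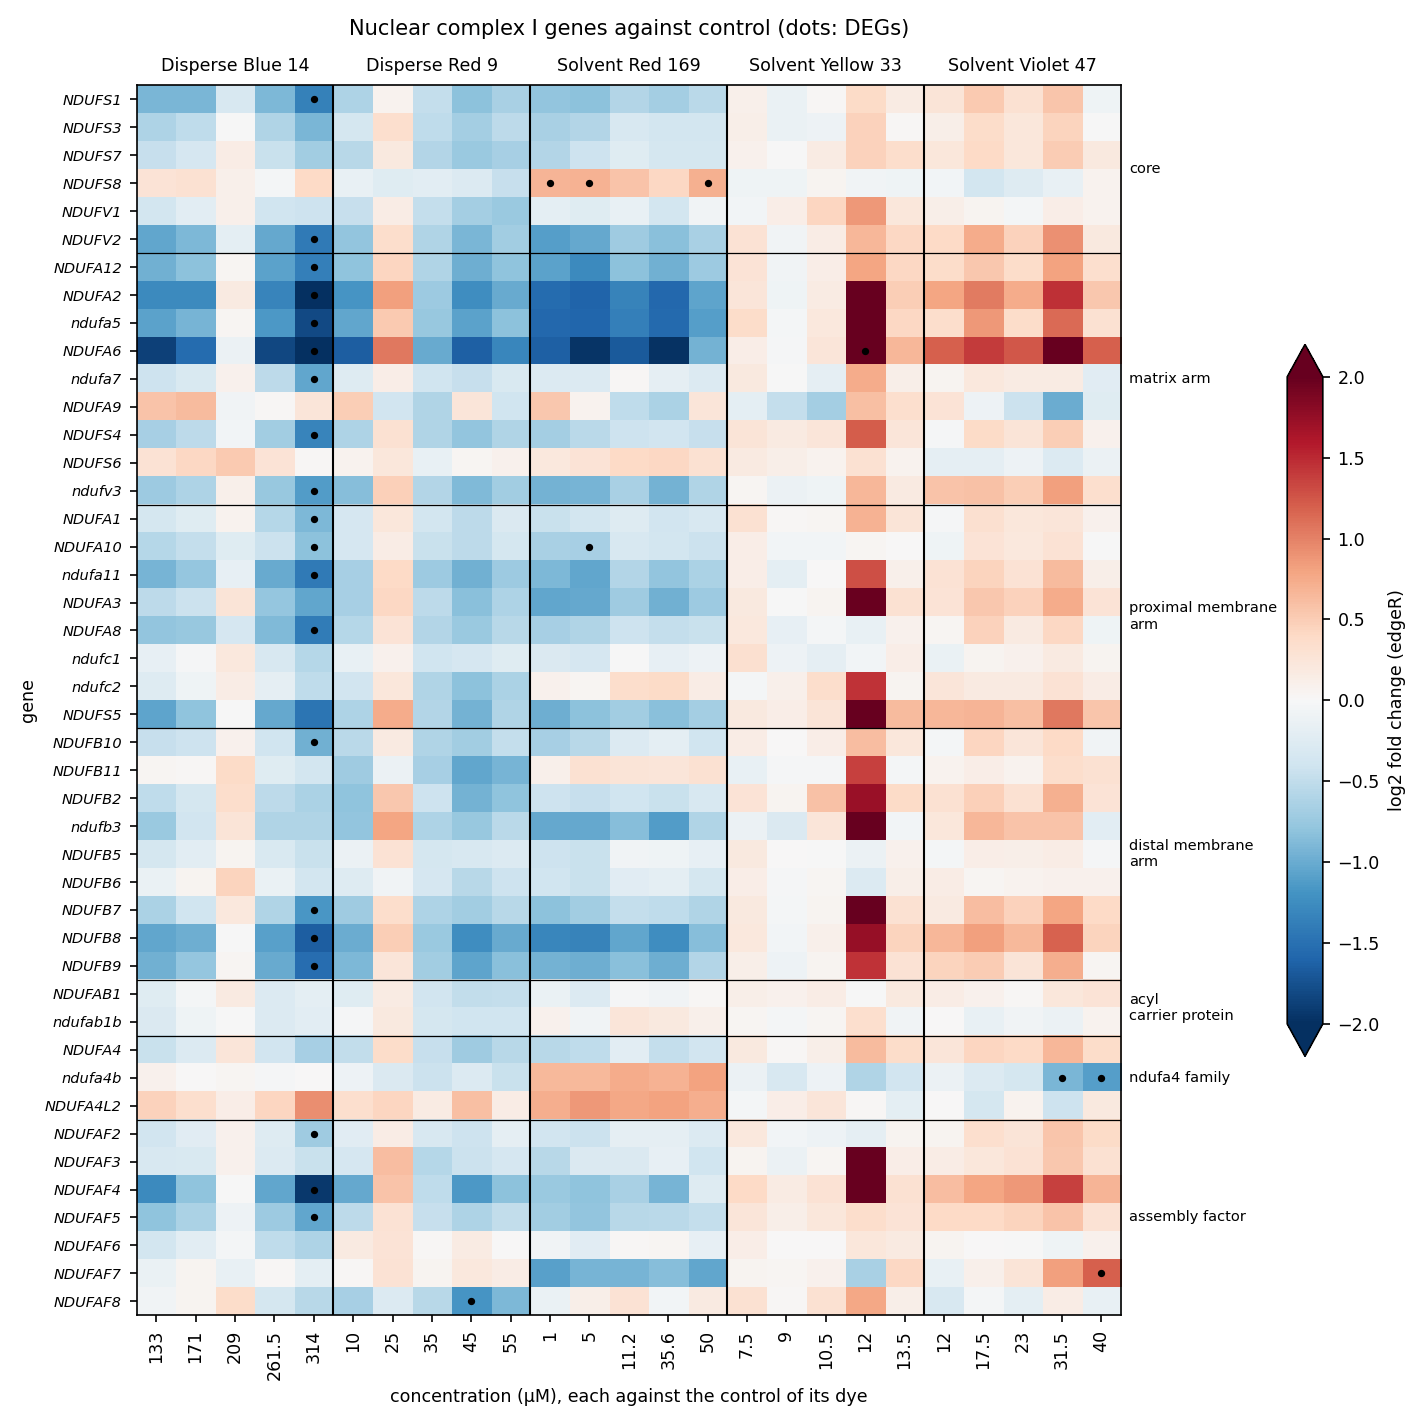
Log2 fold change against the control of the dye (edgeR) for the 34 subunits, 3 ndufa4 family genes and 7 assembly factors tested, by dye and concentration in µM. Colours are cut at -2 and 2, and dots mark DEGs, 17 of whose subunit dots stand in the column of 314 µM Disperse Blue 14.

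At 314 µM Disperse Blue 14, 17 of the 34 subunits were lower and none was higher, where 8.00% of all genes tested were called lower and 7.66% higher by the same rule. The median log2 fold change of the subunits was -0.94, against -0.01 over all genes tested, and 31 of the 34 were below 0. At an unadjusted p under 0.05 stood 23 of the 34 subunits and 41.0% of all genes. In 21 subunits all 3 exposed embryos lay below all 4 controls, which 15.8% of all genes did. None lay above.

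The calls at 314 µM Disperse Blue 14 took in every structural group except the acyl carrier proteins. They were 2 of 6 core subunits, 7 of 9 matrix arm accessory subunits, 4 of 8 of the proximal membrane arm and 4 of 9 of the distal membrane arm. Median log2 fold changes were -0.80 for the core, -1.32 for the matrix arm accessory subunits, -0.96 for the proximal and -0.64 for the distal membrane arm, and -0.21 for the acyl carrier proteins.

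NDUFA1 gave 119, 174, 119 and 110 CPM in the 4 control embryos and 70.4, 57.5 and 78.5 CPM at 314 µM Disperse Blue 14. The groups did not overlap, and the embryos at 261.5 µM, with 86.8, 89.6 and 80.8 CPM, lay between them. The log2 fold change of NDUFA1 at 314 µM was -0.89 ± 0.20 (SE), with an adjusted p of 0.0166. NDUFS4 gave 42.1, 76.2, 32.7 and 28.7 CPM in the controls and 22.4, 13.4 and 16.7 CPM at 314 µM, again without overlap. It fell by 1.32 ± 0.29 on the log2 scale (adjusted p = 0.0166). For ndufa7, an accessory subunit of the matrix arm, the controls gave 46.3, 75.7, 45.1 and 41.0 CPM and the exposed embryos 31.9, 15.7 and 26.6 CPM. Its log2 fold change was -1.04 ± 0.23 (adjusted p = 0.0167). In all 3 genes the highest control was replicate 2, and the other 3 controls still lay above every exposed embryo.

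Among the core subunits at 314 µM, NDUFS1 and NDUFV2 fell, both of which carry iron-sulfur clusters in the NADH-oxidising part of the enzyme. NDUFS1 ran from 89.8 to 286 CPM in the controls and from 37.1 to 66.7 CPM in the exposed embryos, a log2 fold change of -1.35 ± 0.39 (adjusted p = 0.0333). NDUFV2 ran from 29.0 to 113 CPM and from 11.8 to 26.3 CPM, with -1.42 ± 0.44 (adjusted p = 0.0407). NDUFV1, which binds NADH and flavin, did not pass the test, with a log2 fold change of -0.41 ± 0.24 (adjusted p = 0.201), and neither did NDUFS3, with -0.92 ± 0.33 (0.0572), or NDUFS7, with -0.69 ± 0.31 (0.108), both of the ubiquinone-reducing part. NDUFS8 ran from 87.2 to 185 CPM in the controls and from 152 to 221 CPM in the exposed embryos, which overlap, and its log2 fold change of 0.39 ± 0.21 did not pass (adjusted p = 0.169).

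The largest fitted decreases were those of the subunits that also varied most between embryos. NDUFA6 had a log2 fold change of -2.68 ± 0.83 (adjusted p = 0.0404), with 1.95 to 18.1 CPM in the controls and 0.387 to 1.52 CPM at 314 µM. NDUFA2 had -2.07 ± 0.59 (0.0320) and ndufa5 -1.80 ± 0.54 (0.0360). The other DEGs were NDUFA12 and ndufv3 of the matrix arm, NDUFA8, NDUFA10 and ndufa11 of the proximal membrane arm, and NDUFB7, NDUFB8, NDUFB9 and NDUFB10 of the distal membrane arm, with log2 fold changes from -1.65 for NDUFB8 to -0.82 for NDUFA10. Of the proximal membrane arm, ndufc1 had an adjusted p of 0.0305 with a log2 fold change of -0.56, under the limit on fold change.

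3 of the 7 assembly factors fell at 314 µM Disperse Blue 14. NDUFAF4, which acts early in building the ubiquinone-reducing part, ran from 1.24 to 5.11 CPM in the controls and from 0.528 to 0.833 CPM in the exposed embryos, with a log2 fold change of -1.93 ± 0.50 (adjusted p = 0.0254). NDUFAF2, a chaperone of late assembly, had -0.71 ± 0.20 (0.0306), and NDUFAF5, which in human cells modifies NDUFS7, had -1.04 ± 0.34 (0.0448). None of the ndufa4 family was a DEG there, and NDUFA4L2 had the largest value of the family at 0.92 ± 0.34 (0.0581).

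Replicate 2 of the Disperse Blue 14 control and replicates 3 and 4 at 314 µM each decided most of these calls. Without control replicate 2, 3 subunits were called, NDUFA1, NDUFS4 and ndufa7, and the median log2 fold change was -0.59. Without exposed replicate 3 no subunit was called, with a median of -0.77, and without exposed replicate 4 there were 2 calls, NDUFA1 and ndufa7. Leaving out exposed replicate 2 gave 23 calls. Shares of all genes called in these fits are not given here. Of the 17 DEGs, 14 were called in 4 of the 7 fits that left out an embryo, NDUFS4 in 5 and NDUFA1 and ndufa7 in 6.

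Other lists were also counted at 314 µM Disperse Blue 14, where 8.00% of all genes tested were called lower and 7.66% higher. Lower were 4 of 6 nuclear genes of complex III, 10 of 20 of complex IV and 9 of 13 of complex V. Of complex II, 1 of 4 was lower, and none of all these was higher. Of the 12 other assembly factors of complex I tested, 1 was lower, close to the share of all genes, with a median log2 fold change of -0.26. The 7 complex I subunits encoded by mitochondrial DNA had no DEG and a median in the other direction, at 0.51. Among cytosolic ribosomal proteins 20 of 74 were lower and 1 higher, with a median of -1.30, and among 6 skeletal muscle markers 2 were lower. The ribosomal protein score ran from 6.37 to 7.47 at 314 µM and from 7.46 to 9.33 in the controls, and the muscle score from 10.9 to 11.6 and from 11.7 to 13.1. Whether these differences bear on the complex I values was not tested.

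Below 314 µM no subunit was a DEG for Disperse Blue 14, where the share of all genes called was 0.101% at 133 µM, 0.766% at 171 µM, 0.134% at 209 µM and 1.07% at 261.5 µM. Median log2 fold changes of the subunits were -0.54 at 133 µM, -0.41 at 171 µM, 0.08 at 209 µM and -0.59 at 261.5 µM. At 209 µM, replicate 1 with its score of 5.92 stood above the other 2, which both had 5.05, and without it the median was -0.34. Without control replicate 2, the medians were -0.14 at 133 µM, 0.02 at 171 µM and 0.47 at 209 µM. At an unadjusted p under 0.05 there were 10, 3, 2 and 15 subunits at these concentrations, where 13.4%, 17.0%, 8.57% and 17.1% of all genes stood. At 261.5 µM, 16 subunits lay below every control, against 8.12% of all genes, and without control replicate 2 the median there was -0.23. Over the 5 concentrations of exposed embryos, the fit on log2 concentration called no subunit and no other gene, with 33 of 34 slopes below 0 and 2 at an unadjusted p under 0.05, where 5.80% of all genes stood. DESeq2 called no subunit either, at these concentrations or in the trend.

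Disperse Red 9 gave no subunit DEG at any concentration, and few DEGs in all, with no gene called at 10 and 25 µM, 0.0951% at 35 µM, 1.41% at 45 µM and 0.683% at 55 µM. Yet its exposed embryos mostly lay below their controls, which had the highest median of the 5 control groups, with scores from 5.32 to 5.66. At 55 µM the scores were 4.89 to 4.91, and in 26 of 34 subunits all exposed embryos lay below all controls, as in 15.2% of all genes. Median log2 fold changes were -0.59 at 10 µM, -0.58 at 35 µM, -0.75 at 45 µM and -0.60 at 55 µM. At an unadjusted p under 0.05 there were 2, 1, 6 and 3 subunits, against 4.85%, 8.00%, 15.3% and 13.9% of all genes. A fit of 55 µM and its control alone called 11 subunits lower, and DESeq2 called 1 there and none at the lower concentrations. The shares of all genes above are not from these 2 fits, whose own shares are not given here. In the fit on log2 concentration all 34 slopes were below 0, but no subunit was called or had an unadjusted p under 0.05, with 0.0226% of all genes called and 4.63% at that p, and DESeq2 called none.

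The 25 µM group of Disperse Red 9 lay the other way, and a single embryo set its direction. Its 3 scores were 5.24, 6.47 and 4.49, its median log2 fold change was 0.26, and without replicate 3 it was -0.51. Leaving out that embryo also gave 4 calls of a lower subunit at 45 µM and 2 at 55 µM, and a median slope of -0.02 per doubling of concentration in place of -0.10. The share of all genes called without that embryo is not given here. With all embryos, no subunit had an unadjusted p under 0.05 at 25 µM, where 7.00% of all genes did. For NDUFS4 the embryos at 25 µM gave 33.1, 96.8 and 15.9 CPM, of which the second lay above and the other 2 below the controls at 34.3, 41.9, 39.2 and 44.2 CPM. At 55 µM, NDUFS4 gave 25.3, 26.3 and 26.8 CPM, below every control, with a log2 fold change of -0.60 ± 0.44 that did not pass the test (adjusted p = 0.622).

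The only member called for Disperse Red 9 was NDUFAF8, an assembly factor that in human cells stabilises NDUFAF5. It gave 5.71, 6.20, 6.33 and 8.29 CPM in the controls and 2.85, 2.71 and 3.16 CPM at 45 µM, where it fell by 1.17 ± 0.24 on the log2 scale (adjusted p = 0.0277, with 0.778% of all genes called lower). At 55 µM it gave 3.64, 3.52 and 3.36 CPM, also below every control, with a log2 fold change of -0.90 ± 0.24 (adjusted p = 0.0816). The call at 45 µM was made in 1 of 7 fits that left out an embryo, the highest adjusted p being 0.180 without exposed replicate 2.

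Only the subunits NDUFS8 and NDUFA10 were called for Solvent Red 169, although the medians of the subunits lay below 0 at every concentration. Median log2 fold changes were -0.66 at 1 µM, -0.57 at 5 µM, -0.41 at 11.2 µM, -0.41 at 35.6 µM and -0.42 at 50 µM. At an unadjusted p under 0.05 there were 23, 20, 6, 13 and 5 subunits, against 33.5%, 33.1%, 24.1%, 23.6% and 30.5% of all genes. The control embryos had scores of 5.17, 5.84, 4.83 and 4.96, and without control replicate 2 the medians were -0.40, -0.32, -0.12, -0.20 and -0.16, with no subunit called. Without control replicate 3, 19 subunits were called lower at 1 µM and 15 at 5 µM, and DESeq2 called 12 and 10. The shares of all genes called in those fits are not given here, so these counts have no background beside them. In the edgeR fit with all embryos, the share of all genes called either way was 3.73% at 1 µM and 6.26% at 5 µM. It was 0 at 11.2 and 35.6 µM and 3.25% at 50 µM, where 0.734% were called lower. No subunit was called in the fit on log2 concentration by edgeR or DESeq2, where 2 had an unadjusted p under 0.05 (10.4% of all genes, with 0.00567% called) and the median slope was 0.04 per doubling of concentration.

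NDUFS8 was called higher at 3 concentrations of Solvent Red 169. It gave 86.4, 91.1, 140 and 107 CPM in the controls, 179, 176 and 164 CPM at 1 µM, 172, 186 and 166 CPM at 5 µM and 188, 180 and 162 CPM at 50 µM. At these 3 concentrations every exposed embryo lay above every control. The log2 fold change of NDUFS8 was 0.67 ± 0.18 at 1 µM (adjusted p = 0.0450, with 2.80% of all genes called higher), 0.69 ± 0.18 at 5 µM (0.0315, with 4.60%) and 0.71 ± 0.18 at 50 µM (0.0432, with 2.51%). At 11.2 µM the embryos gave 159, 171 and 143 CPM and at 35.6 µM 108, 134 and 182 CPM, and the gene did not pass (adjusted p = 0.164 and 0.190). These comparisons share their controls, whose mean for NDUFS8 was 106 ± 24.1 CPM (SD, n = 4), while the other control groups had means of 148 ± 43.4, 197 ± 73.0 and 197 ± 14.9 CPM (n = 4) and 189 ± 7.70 CPM (n = 2). Against the controls of all dyes pooled, the log2 fold change was 0.08, 0.08 and 0.10 at 1, 5 and 50 µM, with an adjusted p of at least 0.920. With an embryo left out, NDUFS8 was called in 2, 2 and 3 of 7 fits at these concentrations.

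NDUFA10, an accessory subunit of the proximal membrane arm that resembles nucleoside kinases, was lower at 5 µM Solvent Red 169. It gave 179, 271, 176 and 180 CPM in the controls and 118, 132 and 140 CPM at 5 µM, without overlap. The log2 fold change was -0.66 ± 0.19 (adjusted p = 0.0451, with 1.66% of all genes called lower), and it was called in 2 of 7 fits that left out an embryo. The call was lost without control replicate 2, at -0.50 (adjusted p = 0.121).

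No subunit was a DEG for Solvent Yellow 33 at 7.5, 9, 10.5 or 13.5 µM, where medians lay at 0.14, -0.04, 0.05 and 0.21, none had an unadjusted p under 0.05 (4.78%, 7.48%, 9.19% and 12.4% of all genes did), and 0.182%, 0.671%, 1.08% and 2.50% of all genes were called. DESeq2 called none at these concentrations. All groups of the dye entered the same fit, so replicate 3 at 12 µM also bore on these tests. The calls at these concentrations without that embryo are not given here. At 12 µM the median was 0.72 and NDUFA6 was called higher, with 0.381% of all genes. The 12 µM embryos gave 1.03, 465 and 0.767 CPM of NDUFA6 and the controls 1.5, 1.77, 1.62 and 2.71 CPM. The embryo with 465 CPM was replicate 3, which had the lowest total count of all, and the other 2 lay below every control. The log2 fold change was 6.36 ± 1.45 with replicate 3 (adjusted p = 0.0465) and -1.08 without it (adjusted p = 0.161), and the median of the subunits turned from 0.72 to -0.41. In the trend of this dye no subunit was called by edgeR or DESeq2, with 3 at an unadjusted p under 0.05 (2.17% of all genes), and the median slope was 0.52 per doubling of concentration with replicate 3 and -0.01 without it. The methods state that an embryo of this treatment group was removed after quality control, but not which, and all 3 labelled embryos were used. In that embryo the subunit score was 6.87, the ribosomal protein score 11.3 and the muscle score 13.6, each the highest of the 93 embryos.

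With Solvent Violet 47 no subunit was a DEG at any concentration or in the fit on log2 concentration, though it was the dye with the most genes called in that fit, at 12.8% lower and 12.3% higher. At 12, 17.5 and 23 µM no gene of any kind was called, and at 31.5 µM 6.26% of all genes were. At 40 µM, where 8.91% of all genes were called lower and 6.05% higher, the median log2 fold change of the subunits was 0.09 and none had an unadjusted p under 0.05, as in the trend, where 29.4% and 36.5% of all genes did. At 31.5 µM the median was 0.46, with 2 at an unadjusted p under 0.05 (23.3% of all genes). Subunits whose exposed embryos all lay above both controls numbered 0, 14, 11, 13 and 5 of 34 from 12 to 40 µM. The shares of all genes were 6.16%, 20.5%, 21.0%, 24.2% and 22.6%. Those with all exposed embryos below numbered 0, 1, 0, 1 and 0, against 4.75%, 19.3%, 20.8%, 23.0% and 22.3% of all genes. DESeq2 called no subunit for this dye. The controls of this dye were 2 embryos with scores of 4.40 and 4.52, the lowest control group. NDUFA1 gave 82.2 and 74.1 CPM in them and 94.1, 68.9 and 90.8 CPM at 40 µM, and NDUFS4 gave 19.3 and 19.8 CPM and 27.7, 13.2 and 22.8 CPM, both with overlap.

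Of the other members, ndufa4b and NDUFAF7 were called for Solvent Violet 47, in opposite directions. At 40 µM these were 1 of the 3 ndufa4 family genes and 1 of the 7 assembly factors tested, where 15.0% of all genes were called. Calls so few cannot be set apart from that share. The level of ndufa4b was 209 and 233 CPM in the controls, 240, 154 and 226 CPM at 12 µM, 223, 182 and 152 CPM at 17.5 µM, 196, 176 and 154 CPM at 23 µM, 134, 130 and 95.4 CPM at 31.5 µM and 104, 122 and 90.9 CPM at 40 µM. The embryos at 31.5 and 40 µM lay below all others of this dye. The log2 fold change of ndufa4b was -0.92 ± 0.23 at 31.5 µM (adjusted p = 0.0274, with 4.04% of all genes called lower). At 40 µM it was -1.09 ± 0.23 (0.00472, with 8.91%). The slope of ndufa4b was -0.59 ± 0.11 per doubling of concentration (0.00114, with 12.8%).

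NDUFAF7 gave 8.58 and 7.49 CPM in the controls of Solvent Violet 47, 4.76, 9.10 and 7.96 CPM at 12 µM, 7.64, 8.30 and 10.2 CPM at 17.5 µM, 9.65, 9.01 and 10.4 CPM at 23 µM, 12.5, 16.7 and 14.0 CPM at 31.5 µM and 14.3, 19.5 and 22.6 CPM at 40 µM. Again the embryos at the highest 2 concentrations stood apart from all others of the dye. NDUFAF7 rose by 1.20 ± 0.26 on the log2 scale at 40 µM (adjusted p = 0.00690, with 6.05% of all genes called higher). Its slope was 0.79 ± 0.12 per doubling of concentration (0.000258, with 12.3%). Both slopes passed in each of the 15 fits that left out an embryo. At 40 µM, both calls were lost without control replicate 4, with an adjusted p of 0.0620 for ndufa4b and 0.0963 for NDUFAF7. At 31.5 µM ndufa4b was called in 1 of 5 such fits. Against controls of all dyes pooled, the log2 fold changes at 40 µM were -0.80 for ndufa4b (adjusted p = 0.0699) and 0.74 for NDUFAF7 (0.0792).

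**Figure D5:**
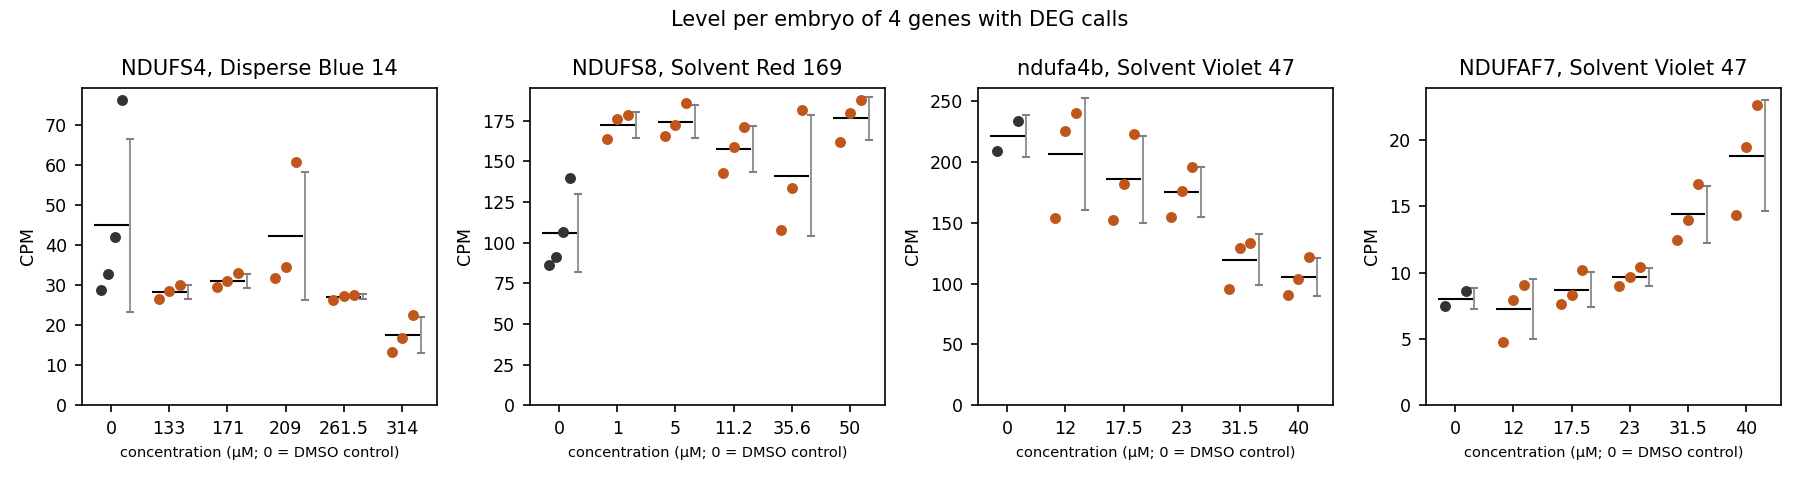
CPM in each embryo of NDUFS4 with Disperse Blue 14, NDUFS8 with Solvent Red 169 and ndufa4b and NDUFAF7 with Solvent Violet 47, by concentration (0 is the DMSO control). Points are embryos, lines group means and bars 1 SD, and NDUFAF7 reaches 14.3 to 22.6 CPM at 40 µM against 7.49 and 8.58 CPM in its controls.

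The assembly factors had 5 calls in 3 of the 25 treatment groups and the ndufa4 family 2 calls in 2, all of which are given above. NDUFAF3 and NDUFAF6, both of early assembly, and NDUFA4 and NDUFA4L2 were not called anywhere. In Solvent Red 169, ndufa4b gave 76.4, 37.7, 197 and 167 CPM in the controls and 266, 191 and 182 CPM at 50 µM. The groups overlapped, and its log2 fold change of 0.80 ± 0.37 did not pass (adjusted p = 0.153). NDUFA4L2 gave 6.64, 2.11, 9.36 and 11.9 CPM in the same controls and 14.4, 13.9 and 14.0 CPM at 5 µM, above every control, with 0.87 ± 0.38 (adjusted p = 0.120). NDUFAF7 likewise varied among these controls. They gave 32.3, 21.4, 8.20 and 9.58 CPM and the embryos at 50 µM 7.46, 9.40 and 9.69 CPM, with a log2 fold change of -1.03 ± 0.34 that did not pass the test (adjusted p = 0.0756).

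The 5 control groups, which were exposed to DMSO only, were also compared with each other. No subunit passed an F test of differences among them (edgeR, adjusted over all genes), where 2.09% of genes did, and 18 of 34 had an unadjusted p under 0.05, against 26.8% of all genes. DESeq2 called 15 subunits, and edgeR called 22 once replicate 2 of the Disperse Blue 14 control was left out. The shares of all genes called in these 2 fits are not given here, so the counts cannot be set against a background. NDUFS4 had means of 44.9 ± 21.6 CPM in the control of Disperse Blue 14, 39.9 ± 4.25 in that of Disperse Red 9, 36.6 ± 15.3 in that of Solvent Red 169, 28.0 ± 4.20 in that of Solvent Yellow 33 (SD, n = 4) and 19.5 ± 0.337 in that of Solvent Violet 47 (n = 2). The medians of the subunit score, in the same order, were 5.04, 5.44, 5.06, 4.84 and 4.46, so that the control of Solvent Violet 47 was lowest in both. Against controls of all dyes pooled, 3 subunits remained called at 314 µM Disperse Blue 14, NDUFA1, NDUFS4 and ndufa7, with log2 fold changes of -0.72, -1.0 and -0.91.

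The highest concentrations of the dyes differ and each dye has its own control, so their responses can be set side by side but were not tested against each other. At 314 µM Disperse Blue 14, 55 µM Disperse Red 9, 50 µM Solvent Red 169, 13.5 µM Solvent Yellow 33 and 40 µM Solvent Violet 47, the median log2 fold changes of the subunits were -0.94, -0.60, -0.42, 0.21 and 0.09. NDUFA1 had -0.89, -0.28, -0.32, 0.26 and 0.08 in the same order, and NDUFS4 had -1.32, -0.60, -0.47, 0.25 and 0.09. The subunits called there numbered 17, 0, 1, 0 and 0, where 15.7%, 0.683%, 3.25%, 2.50% and 15.0% of all genes were called. The 17 were all lower, and the 1 at 50 µM Solvent Red 169 was NDUFS8, which was higher.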

How the data were processed

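Per the labels, the authors trimmed reads with Trim Galore 0.6.5, quantified them with Salmon 1.1.0 against GRCz11 transcripts of poly-A selected libraries and tested them in edgeR 3.28.1. The table that the authors deposited holds expected counts, that is, estimated counts per gene from Salmon that were not normalized, and 62.2% of its values were whole. Log2 CPM tables without gene identifiers were not used. Estimated counts were rounded, and a correction for gene length was not applied. Members were found by symbol, which 19164 of the 19913 genes had. The members and lists were chosen with earlier results of these data known.

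CPM were scaled by TMM over 18605 genes in all 93 embryos, with a pseudocount of 0.5 on the log2 scale. In R 4.3.3, edgeR 4.0.16 (filterByExpr, TMM, quasi-likelihood F test with legacy=TRUE) fitted all groups of a dye together, each concentration against its control. Further fits used log2 concentration over exposed embryos and the 5 control groups, both called at an adjusted p under 0.05 without a limit on fold change. Adjusted p-values are from this test, by Benjamini-Hochberg over all genes, unless another is named, and errors of fold changes are SE. Every member could be named; values of each embryo are given for up to 3 subunit DEGs with the lowest adjusted p at the highest concentration of a dye, for NDUFA1 and NDUFS4 and for other members with a call, and core subunits are given by range. Nothing says whether embryos of a group shared a clutch or plate, so p-values measure the spread between these embryos.

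Other settings tried were a DESeq2 1.42.0 fit, scaling by median ratios, all genes without a filter on low counts, the newer edgeR test, a replicate block, controls of all dyes together, a fit of the treatment group and its control only, ranked concentrations for the trend, and each embryo left out in turn. The fit of 13.5 µM Solvent Yellow 33 without replicate 3 at 12 µM and the correlations without the 5 embryos with the highest subunit scores were chosen after seeing the data. Scripts were tested on simulated data.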

Additional observations from a re-analysis of the deposited data

Results flagged for a closer look

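In control groups of 4 embryos, 100 sets of values were searched for an embryo far from the others. The sets were the subunit score and each member called in any comparison. The measure was Dixon's ratio of the gap to the nearest embryo over the group's range, at its 95% critical value. Chance alone gives about 1 in 20 for sets chosen without the data. The members here were mostly chosen by calls that drew on these same controls, so that rate does not apply to them. 22 sets were flagged. In 17 of them the embryo was replicate 2 of the Disperse Blue 14 control, so they are not independent of each other. Its subunit score was 6.28, against 4.89 to 5.12 in the other 3. It had the highest level of NDUFS1 with 286 CPM (89.8 to 110 in the others), NDUFV2 with 113 CPM, NDUFA1 with 174 CPM, NDUFA10 with 411 CPM, ndufa11 with 117 CPM and NDUFA12 with 62.0 CPM. The same held for NDUFA2 with 40.9 CPM, ndufa5 with 94.9 CPM, NDUFA6 with 18.1 CPM, ndufa7 with 75.7 CPM, NDUFA8 with 219 CPM and ndufv3 with 46.7 CPM (17.1 to 17.4 in the others). It also held for NDUFB8 with 173 CPM, NDUFB9 with 137 CPM, NDUFAF4 with 5.11 CPM and NDUFAF5 with 28.5 CPM.

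The other 5 were in other controls. NDUFS8 was 306 CPM in replicate 4 of the Disperse Red 9 control, against 156 to 171 CPM, and 175 CPM in replicate 4 of the Solvent Yellow 33 control, against 202 to 206 CPM. NDUFAF5 was 13.2 CPM in replicate 4 of the Disperse Red 9 control, against 14.1 to 14.3 CPM. NDUFA10 was 271 CPM in replicate 2 of the Solvent Red 169 control, against 176 to 180 CPM, and NDUFAF2 was 17.8 CPM there, against 13.5 to 14.0 CPM.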

How the results depend on the processing

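Numbers of subunits called, each counted once over the concentrations named, changed with single embryos and with the groups that entered a fit, while scaling by median ratios moved no count by over 1.5 times. At 314 µM Disperse Blue 14, 17 calls became 5 with the replicate block, 3 with pooled controls, 0 with only the treatment group and its control, and 0 to 23 with an embryo left out. At 55 µM Disperse Red 9, 0 became 1 with DESeq2 and 11 with only the pair of groups, and at its lower 4 concentrations 0 to 4 with an embryo left out. At 50 µM Solvent Red 169, 1 became 0 with the replicate block, with pooled controls and with only the pair, and 0 to 12 with an embryo left out. At its lower 4 concentrations 2 became 14 with DESeq2, 1 with no filter on low counts, 1 with the replicate block, 0 with pooled controls or only the pair, and 0 to 21 with an embryo left out. For Solvent Yellow 33, 0 at 13.5 µM became 1 with only the pair, and 1 at the lower 4 concentrations became 7 with DESeq2, 0 with no filter, the replicate block or only the pair, 5 with pooled controls and 0 to 16 with an embryo left out. For Solvent Violet 47, 0 at 40 µM became 2 with pooled controls and 0 in the trend became 0 to 1 with an embryo left out. Among the controls, 0 became 15 with DESeq2 and 0 to 22 with an embryo left out. NDUFA6 at 12 µM Solvent Yellow 33 turned from 6.36 to -1.08 without replicate 3, and ran up to 6.94 with another embryo left out. Shares of all genes called under these other settings are not given. Causes of these changes were not tested. Deviations from the group means of embryos with the same replicate number had a mean r from -0.03 to 0.06 within a dye. Single pairs went as low as -0.76, and groups were small, so these values cannot decide whether the number marks a shared clutch or plate. Of the counts of subunits called under alternatives, 237 were equal or within 1.5 times and 67 moved further. Of the values of called members and the counts of assembly factors, 384 kept their call or count and 161 lost the call. In 1 the direction reversed, and 21 counts of assembly factors moved by over 1.5 times. A count of 0 that stayed 0 was scored as kept. Groups held 2 to 4 embryos, and the control of Solvent Violet 47 held 2.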
